A study of Mus musculus with 6 samples.

Results

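The genes described here set how pyruvate and malate are used in fat: the pyruvate dehydrogenase kinases Pdk1, Pdk2, Pdk3 and Pdk4, the opposing phosphatases Pdp1 and Pdp2, and the malic enzymes Me1, Me2 and Me3. All probe sets annotated to these symbols were taken, which gave 9 genes of 19937 measured, and 10 probe sets of 34760, since Me1 has 2. RNA came from the inguinal white fat pad, which lies under the skin and can form heat-producing beige fat cells, and was hybridised to 1 Affymetrix array per mouse. The groups were 3 Atf7 knockout (KO) mice and 3 wild-type (WT) littermates, all males on a C57BL/6 background, 5 weeks old, bred from heterozygous parents and with no treatment named. The labels name no tissue-specific driver for the deletion, and which part of Atf7 was removed is not given in the sources used here. The series title names fat cell differentiation and thermogenic genes as the question. The genes were chosen by family, with their KO and WT values on these same arrays already known, so their differences are given as a description without a test.

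The pyruvate dehydrogenase complex turns pyruvate into acetyl-CoA inside mitochondria and so commits carbohydrate carbon to oxidation or, through citrate, to fat synthesis. The kinases phosphorylate its alpha subunit and switch it off, and the phosphatases switch it back on. Pdk4 is the isoform best known for induction in fasting and by fatty acids acting through PPAR receptors. Malic enzymes decarboxylate malate to pyruvate. Me1 is cytosolic and supplies NADPH for fatty acid synthesis in adipocytes, Me2 is mitochondrial and works mainly with NAD, and Me3 is mitochondrial and works with NADP.

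Among the kinases and among the malic enzymes, isoforms had means on both sides of their WT levels. Pdk4, Pdk2 and Me3 were higher in KO, Me2 was lower, and Pdk1, Pdp1, Pdp2 and Me1 differed little, while Pdk3 had a lower mean with overlapping groups. Expression values are on a log2 scale, so a difference of 1 is a doubling. Pdk4 was 2.59-fold higher, Me3 1.91-fold and Pdk2 1.55-fold, whereas Me2 was 1.36-fold lower. Ordered by size, Pdk4 had the 8th largest positive difference among all genes, Me3 the 22nd and Pdk2 the 104th.

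No gene passed an adjusted p under 0.05 by limma over all 19937 genes, members included, so 0 of 9 members were called where 0% of all genes were. At an unadjusted p under 0.05 limma counted 4 members, Pdk2, Pdk4 and Me3 higher and Me2 lower. The same threshold took 7.47% of all genes (4.99% higher and 2.48% lower in KO). Groups did not overlap for 6 members, with KO above WT for Pdk1, Pdk2, Pdk4, Pdp1 and Me3 and below for Me2, where 7.96% of all genes lay wholly above and 5.97% wholly below. Nothing is read from these counts, because the contrast was known when the genes were chosen. The median difference of the 9 members was 0.16, beside 0.01 over all genes.

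**Figure D1:**
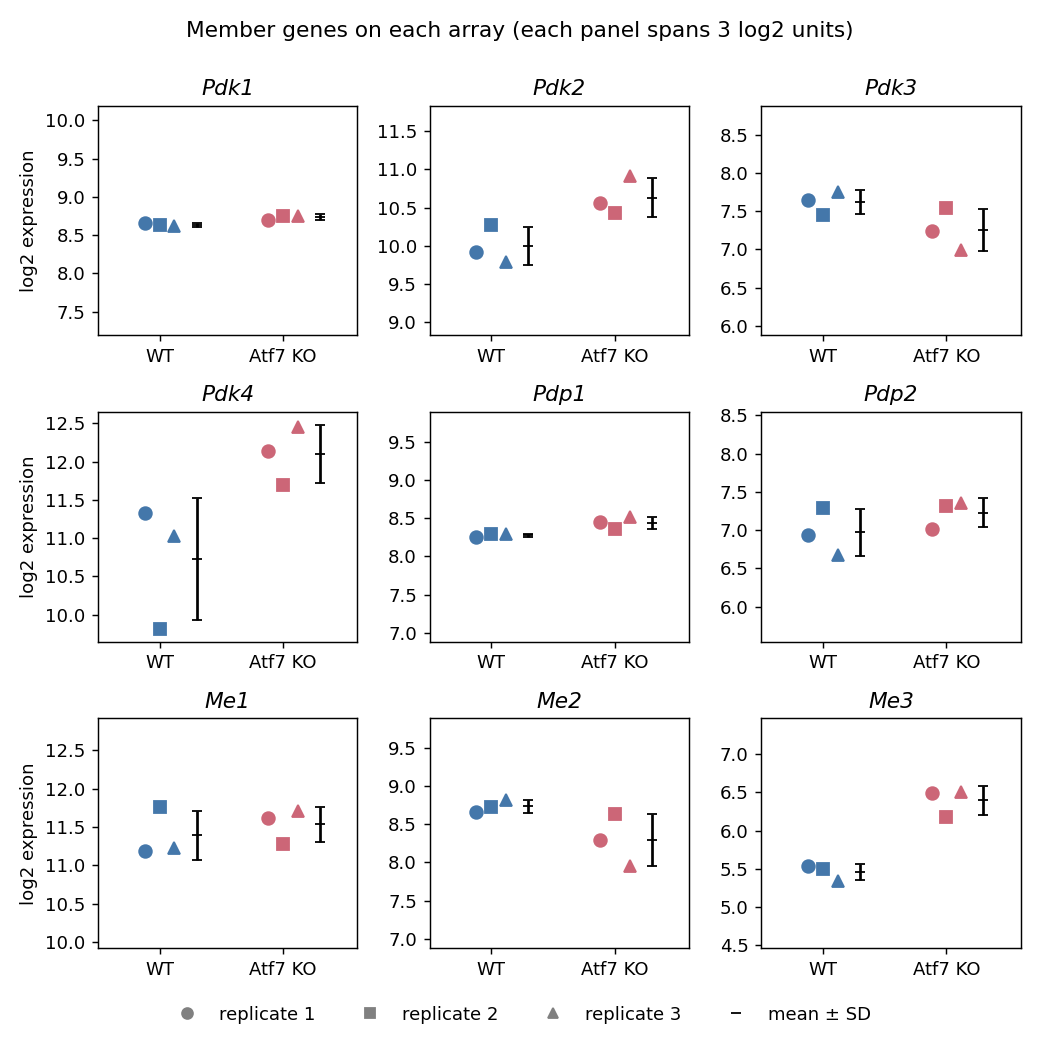
Log2 expression (vertical axis, each panel spanning 3 log2 units) of the 9 genes on the WT (blue) and KO (red) arrays; symbols mark replicates 1 to 3 and bars give mean ± SD. Me3 and Pdk4 show a gap between the groups of 0.64 and 0.37, Me1 and Pdp2 overlap, and WT replicate 2 lies far below the other WT arrays in Pdk4.

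Between arrays, KO replicate 3 stood apart. Its correlation with the others ran from 0.969 to 0.981 across probe sets, against 0.984 to 0.990 among the other 5 arrays. Atf7 itself checked the labels: one of its 2 probe sets was at 8.95 to 9.20 in WT and 6.22 to 6.53 in KO, while the other overlapped (9.34 to 9.52 and 9.10 to 9.42). Because each gene was represented by its brightest probe set, the Atf7 probe set low in KO was not in the fit over genes. The absence of genes passing adjustment there does not cover it. All 9 B cell and all 10 T cell markers measured were lower in KO on average. Their summed level, the mean of values centred per gene, called the lymphocyte score, was 0.52 to 0.82 in WT and 0.64, -0.14 and -2.54 in KO replicates 2, 1 and 3. The skeletal muscle score, over 14 markers of which 12 were lower in KO, spread within both groups, from -1.30 to 2.09 in WT and -1.38 to 1.35 in KO, and was highest in WT replicate 2. That array also had the highest score of the 7 epithelial markers (1.25, against -0.35 to -0.17 on the other arrays). The adipocyte marker Adipoq, named after its values were seen, was bright in both groups, at a mean of 12.47 in WT and 12.46 in KO against 6.89 for the median gene, and the adipocyte score differed little (8 markers, -0.14 to 0.11 in WT and -0.06 to 0.14 in KO). In tissue RNA, fewer cells of a type and less RNA per cell cannot be told apart.

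The promoters of the 3 members with the largest positive differences, Pdk4, Me3 and Pdk2, and of the cytosolic counterpart Me1 are shown so that the letters ahead of their start sites can be compared. They are the 250 bases before the first listed RefSeq start (GRCm38.p6), written 5′ to 3′ along the gene, with matches to the searched motifs in capitals. RefSeq start sites were matched for 7 of the 9 genes; Pdp1 and Me2 are named only.
Pdk4 promoter, chr6:5496279-5496528, minus strand: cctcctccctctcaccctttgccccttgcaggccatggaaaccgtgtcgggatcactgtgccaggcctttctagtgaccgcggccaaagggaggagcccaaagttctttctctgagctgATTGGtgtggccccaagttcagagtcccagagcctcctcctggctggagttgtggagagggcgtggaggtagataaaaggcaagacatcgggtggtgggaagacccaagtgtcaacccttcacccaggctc
Pdk2 promoter, chr11:95041372-95041621, minus strand: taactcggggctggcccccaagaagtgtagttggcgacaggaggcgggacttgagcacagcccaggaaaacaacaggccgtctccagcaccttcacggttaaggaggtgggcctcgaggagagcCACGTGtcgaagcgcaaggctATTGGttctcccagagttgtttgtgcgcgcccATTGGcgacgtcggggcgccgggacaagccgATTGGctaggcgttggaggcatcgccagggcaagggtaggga
Me3 promoter, chr7:89632568-89632817, plus strand: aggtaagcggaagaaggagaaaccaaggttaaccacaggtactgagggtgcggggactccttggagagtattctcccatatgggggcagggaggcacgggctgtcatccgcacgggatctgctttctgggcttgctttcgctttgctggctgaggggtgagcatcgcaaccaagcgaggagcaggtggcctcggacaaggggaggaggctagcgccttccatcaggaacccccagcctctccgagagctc
Me1 promoter, chr9:86695915-86696164, minus strand: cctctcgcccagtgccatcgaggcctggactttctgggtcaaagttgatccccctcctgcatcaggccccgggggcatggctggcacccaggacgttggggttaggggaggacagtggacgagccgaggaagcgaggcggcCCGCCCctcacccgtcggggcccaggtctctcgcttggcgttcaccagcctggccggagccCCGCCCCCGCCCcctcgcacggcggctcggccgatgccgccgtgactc
Motifs were searched on both strands. They were the ATF/CREB full site TGACGTCA and its shorter core TGACG, the nuclear receptor core AGGTCA and the longer ERR site TCAAGGTCA that contains it, the forkhead site TGTTTAC, the E-box CACGTG, the CCAAT box CCAAT, the GC box GGGCGG and the TATA box TATAAA. The full ATF/CREB site contains its core. The capitals mark a CCAAT box on the reverse strand in Pdk4, an E-box and 3 reverse CCAAT boxes in Pdk2, and 3 reverse GC boxes in Me1, while no searched motif was found in Me3. A CCAAT box was in 33.8% of 32851 windows of this length, a GC box in 32.7%, an E-box in 6.02%, a TATA box in 12.4% and a forkhead site in 3.17%. The ATF/CREB full site was in 1.55% of them, its core in 17.8%, AGGTCA in 14% and the ERR site in 0.387%. None of these 4 was in the windows printed. Among the members searched but not printed, Pdk1 and Pdk3 held none of the 4 either. Pdp2 held the ATF/CREB core on both strands, with TGACG beginning 215 bases and its reverse 82 bases before the start site. These matches describe letters in a short window and say nothing of binding.

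Among the kinases, Pdk4 had the largest difference and also the widest spread. Its values were 11.33, 9.82 and 11.03 in WT replicates 1 to 3 and 12.13, 11.70 and 12.46 in KO replicates 1 to 3. The groups did not overlap, and WT replicate 2 was the lowest by more than 1 log2 unit. Mean ± SD over 3 arrays was 12.10 ± 0.38 in KO and 10.73 ± 0.80 in WT. The log2 difference was 1.37 (SE 0.39, 95% interval 0.45 to 2.30). Without WT replicate 2, the array with the highest muscle score, the difference was 0.92. Part of the size of the Pdk4 difference therefore rests on that array, although its direction does not.

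Pdk2, the isoform most widely expressed across tissues, was 9.92, 10.27 and 9.79 in WT and 10.55, 10.42 and 10.91 in KO. The groups did not overlap, but KO replicate 2 was only 0.15 above WT replicate 2. The log2 difference was 0.63 (SE 0.17, 95% interval 0.23 to 1.04), and 0.49 without KO replicate 3. Pdk1, an isoform known for induction by hypoxia, was 8.66, 8.63 and 8.61 in WT and 8.70, 8.75 and 8.76 in KO. These arrays lay so close together that the groups separated at a log2 difference of only 0.10 (SE 0.08, 95% interval -0.09 to 0.29). Limma's standard error, which borrows spread from other genes, is wider here than the Pdk1 arrays alone would give (SD 0.02 in WT and 0.03 in KO).

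Pdk3, the X-linked isoform, had its mean on the other side. It was 7.65, 7.44 and 7.75 in WT and 7.24, 7.54 and 6.99 in KO, and KO replicate 2 fell within the WT range. The log2 difference was -0.36 (SE 0.16, 95% interval -0.73 to 0.01). It was -0.22 without KO replicate 3, the array lowest in lymphocyte markers, and -0.14 when the lymphocyte score entered the fit as a covariate. To set isoforms side by side, each gene was centred on its WT mean and the difference between a pair of isoforms was taken on each array. Pdk4 minus Pdk3 was 1.78, 1.05 and 2.36 in KO and 0.57, -0.74 and 0.17 in WT, a difference of 1.73 (SE 0.54, 95% interval 0.23 to 3.23). Pdk2 minus Pdk3 differed by 0.99 (-0.06 to 2.05), Pdk4 minus Pdk1 by 1.27 (-0.14 to 2.68) and Pdk2 minus Pdk1 by 0.53 (-0.02 to 1.09). These did not overlap between the groups, but their 95% intervals included 0. Pdk4 minus Pdk2 overlapped between the groups, at 0.74 (95% interval -0.93 to 2.41).

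The phosphatases differed less than Pdk2 and Pdk4, and neither had a lower mean in KO. Pdp1, the calcium-stimulated isoform, was 8.25, 8.29 and 8.29 in WT and 8.44, 8.36 and 8.51 in KO, with all KO arrays above by a small margin (log2 difference 0.16, SE 0.09). Pdp2, the isoform linked to insulin, was 6.94, 7.30 and 6.68 in WT and 7.01, 7.32 and 7.36 in KO. Here the groups overlapped, with a log2 difference of 0.26 (SE 0.18, 95% interval -0.16 to 0.67). Leaving out WT replicate 3 gave 0.11, and leaving out WT replicate 2 gave 0.42. Both means were on the same side as those of Pdk2 and Pdk4.

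**Figure D2:**
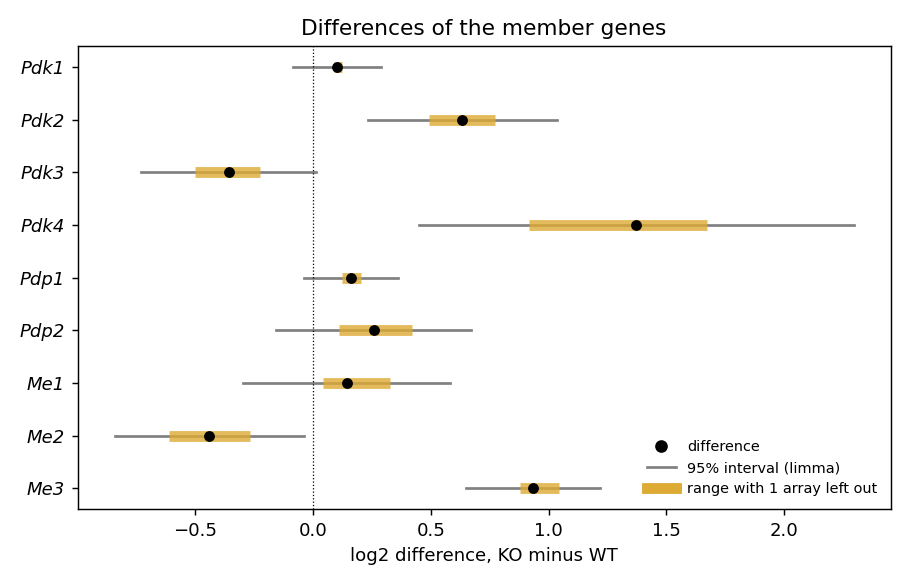
Log2 difference, KO minus WT (horizontal axis), for each gene, with limma's 95% interval (grey) and the range of the difference when 1 array is left out (yellow). Me3 has the narrowest interval among the 3 genes with the largest differences, at 0.65 to 1.22, and the Pdk4 difference runs from 0.92 to 1.67 as arrays are left out.

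The malic enzymes gave 3 different pictures, and the 2 mitochondrial isoforms lay on opposite sides of their WT levels. Me3 was 5.54, 5.50 and 5.35 in WT and 6.50, 6.18 and 6.51 in KO. Every KO array was at least 0.64 above every WT array. Mean ± SD over 3 arrays was 6.40 ± 0.19 in KO and 5.46 ± 0.10 in WT, which put the log2 difference at 0.93 (SE 0.12, 95% interval 0.65 to 1.22). It stayed between 0.88 and 1.04 as each array was left out. Its probe set was dim, with 33.9% of genes at a lower mean.

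Me2 was 8.66, 8.72 and 8.81 in WT and 8.29, 8.63 and 7.95 in KO. KO replicate 2 was only 0.03 below the lowest WT array, and KO replicate 3 was the lowest of all. The log2 difference was -0.44 (SE 0.17, 95% interval -0.84 to -0.04), -0.27 without KO replicate 3 and -0.17 with the lymphocyte score in the fit. Me2 was not among the members under an unadjusted p of 0.05 by limma in either case, nor with the muscle score as a covariate or without WT replicate 1, 2 or 3 or KO replicate 1.

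Me1, the cytosolic enzyme, was 11.19, 11.76 and 11.23 in WT and 11.62, 11.28 and 11.71 in KO. WT replicate 2, the array highest in muscle and epithelial markers, was the highest of all, and the groups overlapped through that array alone. KO replicate 2 was just above the other WT arrays. The log2 difference was 0.14 (SE 0.19, 95% interval -0.30 to 0.58), and it ran from 0.04 without WT replicate 1 to 0.33 without WT replicate 2. The second Me1 probe set was 8.997, 10.47 and 9.99 in WT and 9.69, 9.23 and 10.16 in KO, a log2 difference of -0.12 (SE 0.40). The probe sets list the same transcripts but differed in sign, each by less than its own error.

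Setting the compartments against each other, Me3 had a larger log2 difference than Me1. Their probe sets were unlike in level, with 33.9% of genes at a lower mean for Me3 and 99.1% for Me1. Whether this affected the contrast was not tested. Me3 minus Me1, with each gene centred on its WT mean, was 0.81, 0.83 and 0.74 in KO and 0.28, -0.33 and 0.05 in WT. The KO arrays lay close together (SD 0.05) and all lay above the WT arrays (SD 0.31). The contrast came to 0.79 (SE 0.18, 95% interval 0.29 to 1.29, from the spread within groups). With the second Me1 probe set it was 1.06 but overlapped between groups (95% interval -0.31 to 2.42).

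The contrast within mitochondria was larger and less even. Me3 minus Me2 was 1.47, 0.82 and 1.83 in KO and 0.15, 0.05 and -0.20 in WT, which gave 1.37 (SE 0.31, 95% interval 0.50 to 2.25). Its KO spread (SD 0.52) came mostly from Me2. The value was 1.15 without KO replicate 3. Me1 minus Me2 overlapped, at 0.58 (95% interval -0.46 to 1.63).

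**Figure D3:**
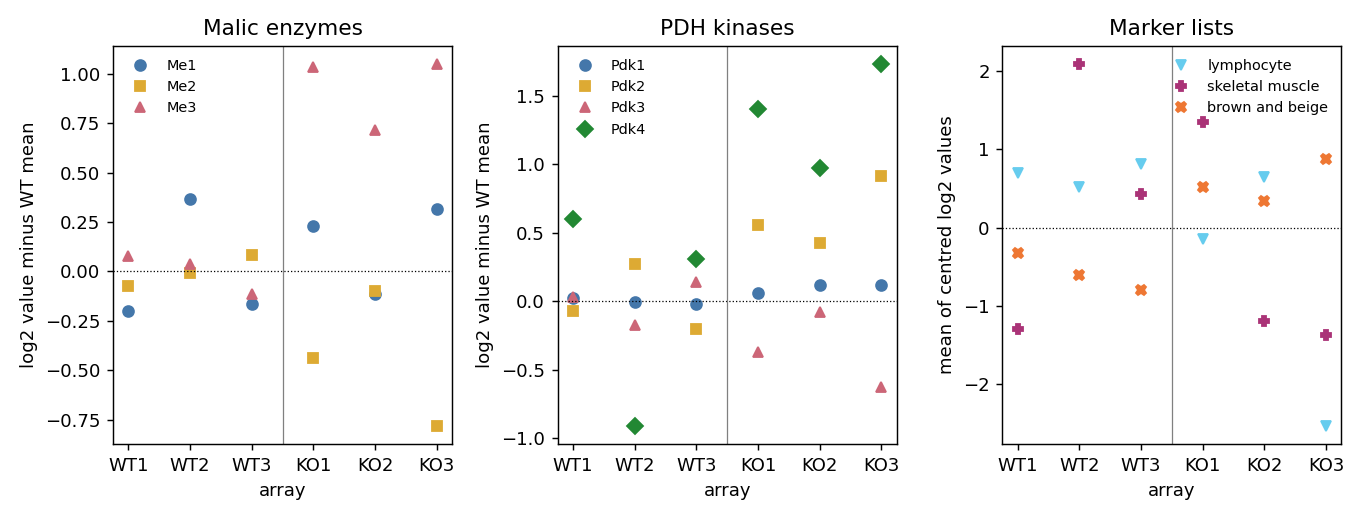
Left and centre, log2 value of each malic enzyme and kinase minus its WT mean on each array; right, scores of lymphocyte, skeletal muscle and brown and beige adipocyte markers on the same arrays (mean of values centred per gene). Me3 is at 0.72 to 1.05 on all KO arrays, whereas Me2 and Pdk3 are lowest on KO replicate 3, where the lymphocyte score is -2.54.

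Across the KO arrays, several members were ordered with the marker scores. Pdk2, Pdk4, Pdp1, Me1 and Me3 were lowest on KO replicate 2 and highest on KO replicate 3, and Pdk3 and Me2 had the reverse order, the order of the lymphocyte score. Other scores followed the order of Pdk4. On KO replicates 2, 1 and 3 the brown and beige adipocyte score was 0.33, 0.51 and 0.87, and the mature adipocyte score -0.06, -0.02 and 0.14. The muscle score had another order. Over 3 arrays, scores that share an order cannot be told apart. For Me3 the step from KO replicate 1 to KO replicate 3 was small (6.50 and 6.51). KO replicate 2, whose lymphocyte score of 0.64 lay within the WT range, was above every WT array for Me3 (6.18), Pdk4 (11.70) and Pdk2 (10.42). On that array Pdk3 (7.54) was inside the WT range, and Me2 (8.63) was just below it. With that score in the fit the difference was 0.82 for Me3, 1.13 for Pdk4 and 0.41 for Pdk2. The brown and beige adipocyte list, with 9 of 10 markers higher in KO, was at 0.33 to 0.87 in KO and -0.80 to -0.32 in WT, without overlap. Such separation was not particular to Me3 among the members, since Pdk1, Pdk2, Pdk4 and Pdp1 also lay wholly above WT, as did 7.96% of all genes. In that list Ucp1, the uncoupling protein of thermogenic fat, was 7.49-fold higher and the lipid droplet gene Cidea 3.004-fold. The part of these cell markers in the members' differences was not tested beyond these values.

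Genes that surround these enzymes were counted in 7 lists, and no gene of any list passed an adjusted p under 0.05 by limma over all genes. At an unadjusted p under 0.05 limma took 4.99% of all genes as higher and 2.48% as lower. The lists were chosen with earlier results of these data known, so nothing is read from their counts. In the pyruvate dehydrogenase complex and mitochondrial pyruvate carrier, 7 of 7 measured genes were positive (53% of all genes were), with a median of 0.24 and 1 higher at an unadjusted p under 0.05. Pdha1, the subunit that the kinases phosphorylate, was 10.48, 10.76 and 10.32 in WT and 10.89, 10.74 and 11.20 in KO. Its difference of 0.42 (SE 0.16) came with overlapping groups. Dld and Dlat, the other catalytic subunits with the largest differences, were at 0.42 and 0.30. So the means of the complex and of Pdk2 and Pdk4 lay on the same side. Groups overlapped for every gene of this list, however. Its score also overlapped, at -0.39 to 0.18 in WT and -0.05 to 0.34 in KO.

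Other enzymes making or using pyruvate had 8 of 10 positive and a median of 0.09, with 2 higher at that threshold. Ldhb, the lactate dehydrogenase subunit of oxidative tissues, was 8.52, 8.82 and 8.19 in WT and 9.33, 9.08 and 9.70 in KO, 1.82-fold higher with no overlap. Ldhd, which oxidises D-lactate, differed by 0.58 and the alanine aminotransferase Gpt2 by -0.42 (SE 0.32). Enzymes and carriers of malate, aspartate and citrate had 7 of 12 positive, a median of 0.11 and 2 higher at that threshold. Fumarase (Fh1), which makes malate in mitochondria, differed by 0.51 and citrate synthase (Cs) by 0.35. The aspartate-glutamate carrier Slc25a12 was at -0.42, lowest on KO replicate 3 (7.95) like Me2. The malate, aspartate and citrate list thus held genes on both sides of their WT levels.

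Other NADPH-producing enzymes had 7 of 9 positive and a median of 0.10, with 1 higher at an unadjusted p under 0.05. That gene, Idh2, the mitochondrial NADP-dependent isocitrate dehydrogenase, was 9.87, 9.69 and 9.71 in WT and 10.23, 10.24 and 10.40 in KO. The groups were separated by 0.36 and the difference was 0.53 (SE 0.10). Mthfd2l, a mitochondrial folate enzyme, differed by 0.28 and H6pd, of the endoplasmic reticulum, by 0.17, both with overlap. Cytosolic Idh1 differed by 0.13 and Pgd, of the pentose phosphate pathway, by -0.04; both were named after their values were seen, as the cytosolic counterparts. The other mitochondrial enzymes of the list, Aldh1l2 (0.10) and Nnt (-0.12), also overlapped and were likewise named after their values were seen. Idh2 was thus the only gene of this list whose groups did not overlap, and no difference between compartments was tested.

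Fatty acid synthesis, the route that Me1 supplies with NADPH, had 9 of 11 positive and a median of 0.19. At that threshold 5 were higher, where 4.99% of all genes were. Elovl6, an elongase, was 1.54-fold higher, Acacb, the acetyl-CoA carboxylase at the mitochondrial surface, 1.44-fold, and Acss2, a cytosolic acetyl-CoA synthetase, 1.35-fold, each without overlap. Fatty acid oxidation genes under PPAR control, the programme that Pdk4 accompanies in fasting, had 9 of 10 positive, a median of 0.49 and 4 higher. The negative gene was Cpt1a, at -0.17 with overlapping groups, named after its values were seen. Of all genes, 53% were positive. Hadhb differed by 0.73 and Acadvl by 0.72, both enzymes of the mitochondrial oxidation spiral, with no overlap. Angptl4, a secreted lipase inhibitor, differed by 0.59 (SE 0.42) and was lowest on WT replicate 2 (9.36), as Pdk4 was.

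Among 19 transcriptional regulators of these genes, 17 were positive (53% of all genes were), with a median of 0.28. At an unadjusted p under 0.05 by limma 7 were higher and 1 lower, where 4.99% and 2.48% of all genes were. Ppara, the receptor that induces Pdk4 and fatty acid oxidation, was 8.58, 7.73 and 7.54 in WT and 9.44, 8.95 and 9.48 in KO, 2.54-fold higher. The coactivators Ppargc1a and Ppargc1b differed by 0.86 and 0.67, also without overlap. The 1 lower gene was Foxo1, a fasting factor that activates Pdk4, at -0.36, named after its values were seen. Ppara and Foxo1, both named here as activators of Pdk4, thus lay on opposite sides of their WT levels. Most of the list, 17 of 19, was positive.

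**Figure D4:**
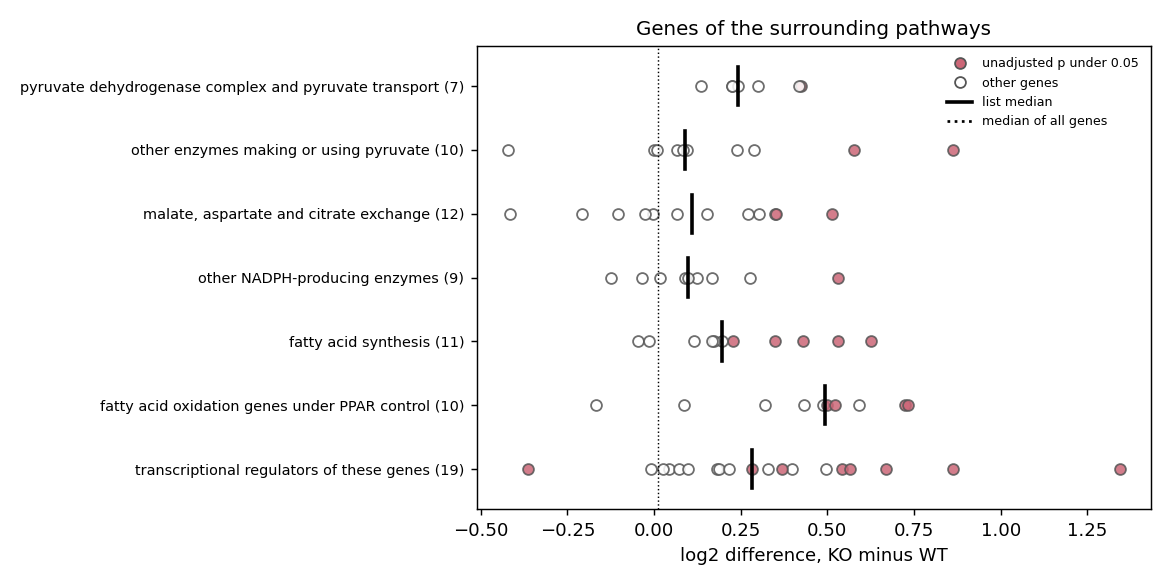
Log2 difference, KO minus WT (horizontal axis), of each measured gene in 7 lists (number measured in brackets); filled points are at an unadjusted p under 0.05 by limma, black bars are list medians and the dotted line is the median of all genes, 0.01. The fatty acid oxidation list has the highest median, 0.49, and the lists around pyruvate and malate lie between 0.09 and 0.24.

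The genes whose 6-array pattern was most like each of 3 members were taken from 9718 brighter genes as a description. For Me3 they were Sema4c, Nsmf and Hspa4l, with Pearson correlations of 0.995, 0.994 and 0.994, and for Pdk4 Card10, Ccdc167 and Smad6 (0.991, 0.983 and 0.982). For Me1 they were Mrps18a, Aldoa and Ccng1 (0.999, 0.992 and 0.990). With 6 arrays such values are common, and the candidate ranked 10 still had 0.984 for Me3, 0.970 for Pdk4 and 0.9746 for Me1. The differences of these genes were small, from 0.26 to 0.28 for those like Me3, 0.12 to 0.21 for those like Pdk4 and 0.06 to 0.11 for those like Me1.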

How the data were processed

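Sample titles gave the groups and replicate numbers, with 3 arrays per group; the series design calls the replicates mice. The deposited values are log2 expression per probe set, for which RMA, affy and limma are named per the submitters' processing notes; versions, options and genome build are not given in the sources used here. Quantile normalization in RMA hides a shift shared by most genes. Of 34760 probe sets, 21640 had 1 gene symbol in the platform annotation, 1321 several and 11799 none. A gene was represented by its single-symbol probe set with the highest mean, and 954 genes had several. Limma 3.58.1 in R 4.3.3 (lmFit, eBayes, KO against WT, two-sided, no filter) was fitted over 19937 genes with Benjamini-Hochberg adjustment and a threshold of 0.05; standard errors and 95% intervals are limma's, except for differences between isoforms, which use their spread within groups on 4 degrees of freedom. The fit was tested on simulated data. With 3 against 3, an exact permutation test cannot go below 0.1.

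The 9 genes matched the RefSeq table by Entrez identifier. Named genes were all members, Atf7, Ucp1, Cidea, the 3 genes with the largest absolute difference in each of 7 pathway lists, and the 3 genes most like Pdk4, Me1 and Me3; others are marked in the text. Members and lists were chosen with earlier results of these data known. Listed genes with no value here are not reported. Alternatives were 2 normalizations, a filter on dim genes, all probe sets, probe set means, the replicate number as a block, array weights, 2 marker scores as covariates, and each array left out.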

Additional observations from a re-analysis of the deposited data

How the results depend on the processing

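Of 134 member differences under the alternatives, 133 kept their direction; the exception was Me1, at -0.03 with the lymphocyte score as a covariate. With that score Pdp1 was at 0.10 and Me2 at -0.17, each moved by more than the SD between replicates, and the fatty acid oxidation median was 0.23. The filter on dim genes left out Me3, so it gave no value for it. The malic enzyme contrast ran from 0.63 to 0.93 with each array left out and from 0.71 to 0.92 otherwise, and Me3 minus Me2 from 1.15 to 1.65 and from 0.99 to 1.39. Genes at an adjusted p under 0.05 by limma numbered 2 over all probe sets, 1 with probe set means and 0 otherwise. Genes at an unadjusted p under 0.05 numbered 1489, and 871 without dim genes, 2396 over all probe sets, 2944 with array weights, 771 with the lymphocyte score, 923 with the muscle score and 758 to 3757 with each array left out. As shares of the features fitted these were 7.47%, and 8.74% without dim genes and 6.89% over all probe sets, so for these 2 settings the share moved opposite to the count. With each array left out, list medians ran from 0.015 to 0.24 for other NADPH enzymes, 0.18 to 0.36 for fatty acid synthesis 0.35 to 0.61 for fatty acid oxidation, 0.13 to 0.43 for the pyruvate dehydrogenase complex and carrier, 0.06 to 0.26 for other pyruvate enzymes, 0.03 to 0.20 for malate, aspartate and citrate exchange and 0.17 to 0.35 for the regulators. The lowest values came without WT replicate 3 or without KO replicate 1 or 3, and the highest without WT replicate 2 or KO replicate 2. Deviations of same-numbered arrays from their group means correlated at 0.00, 0.03 and 0.04. With 3 arrays per group and KO replicate 3 apart from the others, this cannot settle whether equal numbers mark paired mice. With the replicate block 1383 genes were at an unadjusted p under 0.05 by limma, and 0 passed adjustment. The members' differences are the same by construction. Detection calls were not used here, so dim probe sets such as that of Me3 have no background limit.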
